A study of Homo sapiens with 24 samples.

Results

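HT29 cultures that received vehicle and no growth factor were compared between 72 h and 48 h, the second day-to-day step of a 3-point time course. HT29 is a widely used cell line grown from a human colorectal adenocarcinoma. The comparison was chosen with earlier results of these data known. It used 8 of the 24 arrays of the series, picked by their sample labels: 4 arrays at 72 h against 4 at 48 h. At each time these were the vehicle of VEGF and the vehicle of PDGF, each in replicate 1 and replicate 2, and neither vehicle is described further in the sources used here. The labels place each replicate number on its own hybridisation day, so replicate 1 and replicate 2 are called replicate sets, and the number entered the test as a block. The other arrays were the same vehicles at 24 h and cultures given VEGF or PDGF at 100 ng/ml for 24, 48 or 72 h. Cells had 24 h to recover after seeding before additions. The labels do not state whether replicates, or the vehicles of a set, came from separate cultures. The p-values therefore reflect array-to-array spread, part or all of which may be technical. Each array gave a log2 expression level for 49293 probe sets, and 1 unit on this scale is a doubling. With no count behind a level, the number of arrays limits the precision. The 95% interval of a second-day change was typically 0.11 to either side on the log2 scale, as a median over all probe sets. It was wider for the genes with the largest changes, whose standard errors (SE) ranged from 0.09 (BRI3BP) to 0.33 (LCN2).

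Epithelial cells in a dish divide until they cover it, and over days the medium loses nutrients while metabolites and secreted factors build up. Crowding and nutrient shortage are known to slow DNA replication, to draw on the amino acid response run by ATF4, and to alter sterol synthesis, which the SREBP factors adjust to the cell's cholesterol supply. Interferon-stimulated genes are a separate programme of antiviral defence, switched on through a DNA element in their promoters.

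Promoter sequences of genes from these programmes that changed are shown first, because these elements are known binding sites of the factors that drive the programmes. Only promoters with a match are shown, so the presence of an element in these sequences was fixed by that choice. Each runs 5′ to 3′ on the gene's strand over the 250 bases before the RefSeq start in GRCh38.p14, and capitals mark matches on either strand. For interferon genes the motif was the interferon-stimulated response element, written as GAAA, 2 bases of any kind and GAAA. IFI27 is at chr14:94110486-94110735 (+ strand, 1 of 2 listed promoters), ISG15 at chr1:1013247-1013496 (+ strand) and MX1 at chr21:41431800-41432049 (+ strand, 1 of 3 listed promoters). ASNS, at chr7:97872409-97872658 (− strand, 1 of 2 listed promoters), shows the amino acid response element TGATGNAA. MCM6, at chr2:135876444-135876693 (− strand), shows the E2F element TTTNGCGC, whose matches on the 2 strands overlap.
IFI27: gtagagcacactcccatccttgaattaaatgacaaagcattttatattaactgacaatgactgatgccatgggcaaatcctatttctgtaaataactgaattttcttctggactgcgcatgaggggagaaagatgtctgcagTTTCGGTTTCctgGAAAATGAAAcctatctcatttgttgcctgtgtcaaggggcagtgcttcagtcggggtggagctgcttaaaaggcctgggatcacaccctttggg
ISG15: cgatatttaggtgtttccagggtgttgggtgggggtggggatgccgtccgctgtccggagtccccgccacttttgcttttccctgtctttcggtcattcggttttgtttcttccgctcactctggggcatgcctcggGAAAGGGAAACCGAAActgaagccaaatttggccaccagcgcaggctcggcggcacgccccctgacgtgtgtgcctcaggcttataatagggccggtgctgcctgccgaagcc
MX1: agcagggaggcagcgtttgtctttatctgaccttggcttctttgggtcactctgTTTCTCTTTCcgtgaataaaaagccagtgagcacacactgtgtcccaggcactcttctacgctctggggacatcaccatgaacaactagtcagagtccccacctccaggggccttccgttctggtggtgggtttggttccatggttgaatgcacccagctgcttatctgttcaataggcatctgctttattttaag
ASNS: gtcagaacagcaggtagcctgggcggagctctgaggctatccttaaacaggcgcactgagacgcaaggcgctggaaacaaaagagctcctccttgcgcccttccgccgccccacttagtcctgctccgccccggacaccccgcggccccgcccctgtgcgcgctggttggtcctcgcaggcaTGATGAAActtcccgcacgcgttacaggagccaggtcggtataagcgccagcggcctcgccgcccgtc
MCM6: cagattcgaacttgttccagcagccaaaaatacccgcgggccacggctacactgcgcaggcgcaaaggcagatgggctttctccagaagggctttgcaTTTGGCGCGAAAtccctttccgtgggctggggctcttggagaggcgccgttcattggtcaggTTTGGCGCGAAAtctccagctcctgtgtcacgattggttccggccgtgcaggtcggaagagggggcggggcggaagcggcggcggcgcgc
The interferon element was in this window for 7 of 9 interferon genes with a listed promoter, and for 4 of the 6 of these that rose, against 3.71% of 27305 genes. OAS1 and IRF9 rose and had no match there, while IFIT1, IFI6 and IFI44L had a match and were not among the genes that rose. The amino acid element was found for 4 of 13 genes of that list (2 of the 6 that rose) against 3.89% of genes. For cell cycle genes the E2F element was found for 4 of 19 (2 of the 7 that fell) against 1.84%, the CCAAT box CCAAT for 16 of 19 (5 of 7) against 37.0%, and the element TTTGAA for 7 of 19 (0 of 7) against 16.1%. The sterol element TCACNCCAC was found for 1 of 9 cholesterol genes (0 of 6 that fell) against 1.09% of genes. These are letter matches in 1 short window and not measured binding sites. The lists hold known members of these programmes, so a share above that of all genes can follow from the choice of lists. Whether a match goes with the second-day change was not tested.

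From 48 to 72 h, 4532 of 49293 probe sets (9.19%) changed in the vehicle cultures by limma's moderated test with the replicate block, at a Benjamini-Hochberg adjusted p under 0.05. Of these, 2726 (5.53%) were higher at 72 h and 1806 (3.66%) lower, so 60.2% of the changes were rises. Taking 1 probe set per gene for 18132 genes, 1318 (7.27%) were higher and 753 (4.15%) lower. The step was broad and shallow. The median size of the called changes was 0.28 on the log2 scale, 149 of them exceeded 1.5-fold, and 10 rises and 2 falls exceeded 2-fold. The median change over all probe sets was near 0, and their median size was 0.055. The 4 arrays at 72 h all lay above the 4 at 48 h for 3020 probe sets (6.13%) and all below for 2391 (4.85%).

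The number of calls depended on single arrays of replicate 2. Leaving out the VEGF vehicle of that set at 48 h gave 1362, leaving out its PDGF vehicle at 48 h gave 1174, and leaving out the same vehicles at 72 h gave 1789 and 1816. The count fell to 1032 without the replicate block, with 612 higher and 420 lower. Extra quantile normalisation gave 2601 higher and 2553 lower, an even split in place of the excess of rises.

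Calls were concentrated among brighter probe sets, and the direction differed with level. When probe sets were divided into 5 equal bands by their mean over all arrays, 0.19% of the dimmest band and 21.36% of the brightest were called. In the brightest band 902 were higher and 1204 lower, whereas in the next band 1242 were higher and 427 lower.

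**Figure D1:**
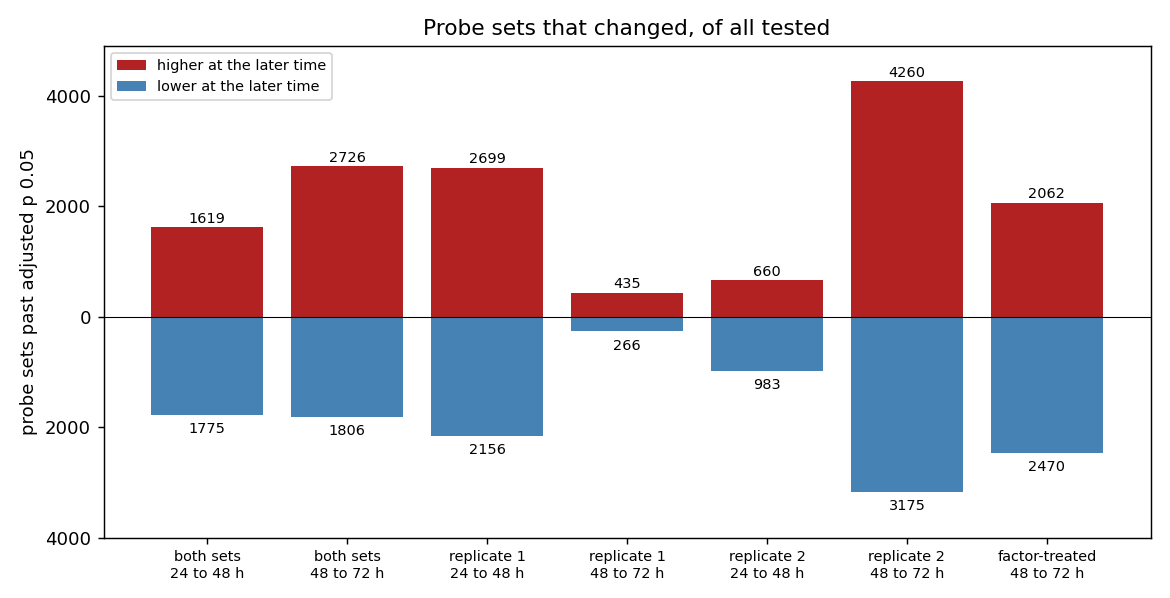
Number of probe sets past an adjusted p of 0.05 that were higher (above 0) or lower (below 0) at the later of a pair of times, in vehicle cultures of both sets, of each replicate set alone, and in factor-treated cultures. In replicate 1 the first day holds most calls (2699 higher, 2156 lower) and in replicate 2 the second day (4260 higher, 3175 lower).

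The replicate sets moved mostly the same way, with the greater changes in replicate 2. Fitted alone, replicate 1 had 701 called probe sets on the second day (1.42%), 435 higher (0.882%) and 266 lower (0.54%). Replicate 2 alone had 7435 (15.1%), 4260 higher (8.64%) and 3175 lower (6.44%). The SD of the second-day change over all probe sets was 0.115 in replicate 1 and 0.185 in replicate 2, on the log2 scale. The single array-to-array steps had SDs of 0.122 (VEGF vehicle) and 0.145 (PDGF vehicle) in replicate 1, and 0.196 and 0.212 in replicate 2.

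Over 49293 probe sets, not counted as replicates since genes move together, the second-day changes of the 2 sets had a Pearson correlation of 0.53 and a Spearman correlation of 0.42, with no array in common. Of the 435 probe sets that rose in replicate 1 alone, 414 (95.2%) were also higher in replicate 2, where their median change was 0.423, against 47.7% of all probe sets. Of the 266 that fell in replicate 1, 254 (95.5%) were lower in replicate 2, against 52.3% of all probe sets. In the other direction, 3768 of the 4260 rises of replicate 2 (88.5%) were positive in replicate 1, with a median of 0.133, and 2559 of the 3175 falls (80.6%) were negative. Of all probe sets, 51.1% were positive and 48.9% negative in replicate 1. Called in both sets with the same sign were 565 probe sets, which is 80.6% of the replicate 1 list and 7.6% of the replicate 2 list, and 1 probe set was called with opposite signs.

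The difference in size between the sets was itself tested, in a fit over the 12 vehicle arrays with a mean for each time and set. For 895 probe sets (1.82%) the second-day change differed between replicate 2 and replicate 1, higher in replicate 2 for 412 (0.836%) and lower for 483 (0.98%). In 846 of them (94.5%) it was the larger in replicate 2, and in 362 the signs were opposite. This count depended on single arrays: it was 290 and 234 without the VEGF vehicle or the PDGF vehicle of replicate 1 at 48 h, and 325 and 219 without those of replicate 2 at 48 h. On the first day 140 probe sets (0.284%) differed between the sets, and in 105 of these the change was the larger in replicate 1.

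**Figure D2:**
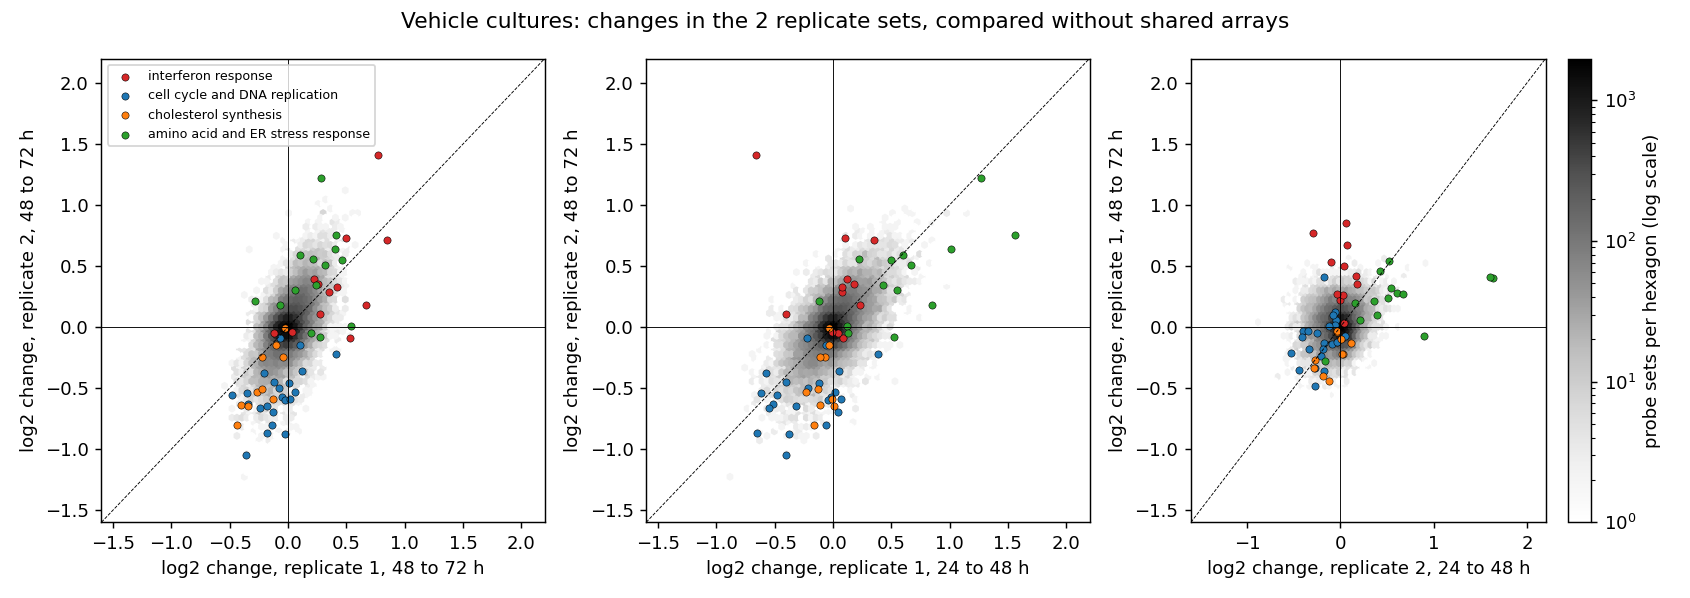
Log2 changes of vehicle cultures in replicate 1 and replicate 2, in 3 panels that set steps without a shared array against each other. Grey hexagons count all 49293 probe sets on a log scale, coloured points are genes of 4 lists, and the dashed line marks equal change. The clouds lie along the diagonal in the left panel (Pearson correlation 0.53) and the middle panel (0.58), and the right panel shows little slope (0.14).

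The largest rise was that of LCN2. LCN2 (lipocalin 2, an iron-siderophore binding protein secreted by inflamed gut epithelium; probe set 11757634_a_at) measured 11.3 and 11.09 at 48 h in replicate 1 (VEGF vehicle, then PDGF vehicle) and 10.78 and 10.69 in replicate 2. At 72 h it measured 11.73 and 11.66 in replicate 1 and 12.79 and 12.92 in replicate 2. All 4 arrays at 72 h lay above all 4 at 48 h, and the rise was far greater in replicate 2. The joint change was 1.30 ± 0.33 (SE) on the log2 scale (2.47-fold, limma adjusted p = 0.0192), made of 0.50 in replicate 1 and 2.11 in replicate 2.

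ASS1 (argininosuccinate synthase, which makes the precursor of arginine; 11758627_s_at) stood at 9.65, 9.52, 8.56 and 8.70 at 48 h, in the same order of arrays. At 72 h the levels were 10.19, 10.19, 10.42 and 10.44. The sets were apart at 48 h and close together at 72 h, without overlap between times. The change was 1.20 ± 0.23 (limma adjusted p = 0.00439).

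TXNIP, which encodes a thioredoxin-binding protein that restrains glucose uptake (11752765_s_at), measured 10.13, 10.06, 9.68 and 9.76 at 48 h and 11.25, 11.35, 10.41 and 11.10 at 72 h. Each array at 72 h was above every array at 48 h, and the change was 1.21 in replicate 1 and 1.03 in replicate 2. The joint change of 1.12 ± 0.21 had a limma adjusted p of 0.00389. NDRG1, a stress gene induced by low oxygen and by differentiation (11754337_s_at), went from 8.83, 8.99, 8.23 and 8.24 to 9.45, 9.96, 9.15 and 9.46. Its arrays also did not overlap, and the rise was 0.94 ± 0.12 (limma adjusted p = 0.000763).

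The other rises named by rule (the 12 largest with the same sign in all 4 array steps) ranged from 0.88 to 1.11. They were NIBAN1 (a stress-induced regulator of translation, 1.11), IFI27 (an interferon-stimulated gene, 1.09), SLC16A4 (a monocarboxylate transporter family member, 1.06) and NEBL (nebulette, an actin-binding protein, 1.04). TGM2 (transglutaminase 2, a protein crosslinker) rose by 0.97, TMC4 (a transmembrane channel-like protein) by 0.95, LARP6 (an RNA-binding protein of collagen transcripts) by 0.93 and PLAAT4 (a phospholipase induced by retinoids) by 0.88. Of a gene's probe sets, 2 of 6 passed as rises for NDRG1, 2 of 5 for NEBL, 1 of 4 for TGM2 and 2 of 3 for PLAAT4. For the other named rises all did. The change in replicate 2 minus that in replicate 1 passed the test for LCN2, ASS1, NIBAN1, SLC16A4, NEBL, TGM2, TMC4 and LARP6, by 0.93 to 1.62. Without any 1 of the 4 replicate 2 arrays at 48 and 72 h, LCN2, NIBAN1, SLC16A4, NEBL and LARP6 no longer passed the joint test. TGM2 was lost without the PDGF vehicle of replicate 2 at 48 h, and LARP6 also without either PDGF vehicle array at 24 h.

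**Figure D3:**
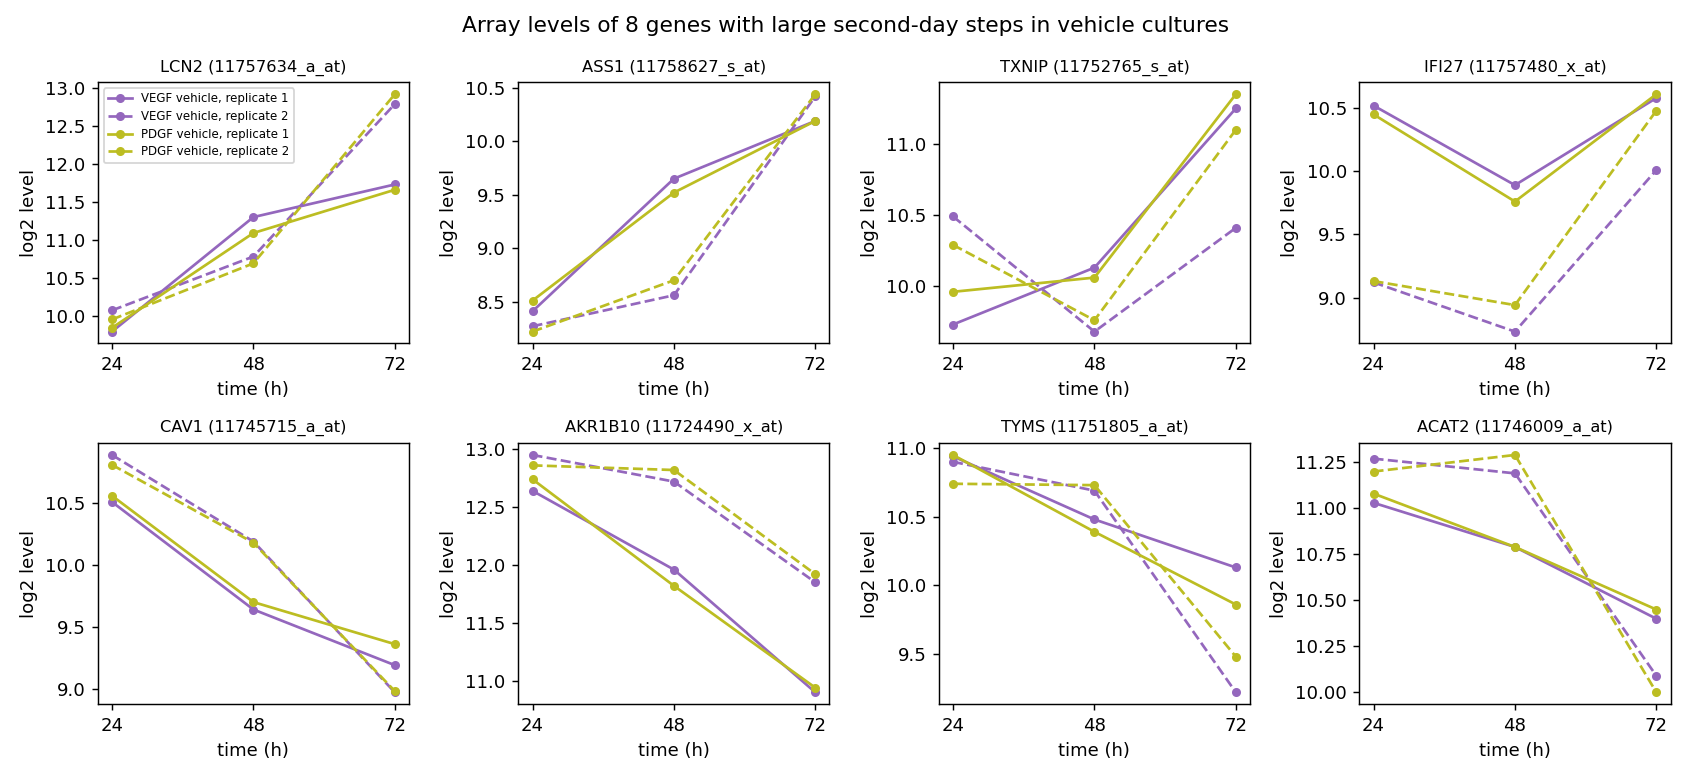
Log2 levels of 8 genes with large second-day changes in each vehicle array at 24, 48 and 72 h (solid lines replicate 1, dashed lines replicate 2, purple VEGF vehicle, olive PDGF vehicle). LCN2 and ASS1 rise in both sets with the greater second-day rise in replicate 2, TXNIP and IFI27 rise after 48 h in every line, and the 4 genes below fall. The rule that named these genes asked for 1 sign in all 4 second-day array steps. Each panel has its own vertical axis, which does not start at 0.

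Of the 12 falls named by the same rule, which takes only probe sets annotated to 1 gene, those of a pair of near-identical aldo-keto reductase genes were the greatest. AKR1B10, an aldo-keto reductase that clears aldehydes and retinal (11724490_x_at), measured 11.96, 11.82, 12.72 and 12.82 at 48 h and 10.90, 10.94, 11.85 and 11.92 at 72 h. Because the sets were apart at both times, the highest arrays at 72 h overlapped the lowest at 48 h, while the change was −0.97 in replicate 1 and −0.88 in replicate 2. The joint change was −0.93 ± 0.16 (limma adjusted p = 0.00325), and AKR1B15, a near-identical neighbour whose probes may measure the same transcripts, changed by −0.94.

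TYMS (thymidylate synthase, which makes the thymidine nucleotide for DNA; 11751805_a_at) went from 10.48, 10.39, 10.69 and 10.73 at 48 h to 10.13, 9.86, 9.22 and 9.48 at 72 h. All arrays at 72 h lay below those at 48 h, with a change of −0.44 in replicate 1 and −1.36 in replicate 2. ACAT2 (acetoacetyl-CoA thiolase, at the entry to the mevalonate pathway; 11746009_a_at) went from 10.79, 10.79, 11.19 and 11.29 to 10.40, 10.45, 10.09 and 10. Its change was −0.78 ± 0.15 (limma adjusted p = 0.00494), with no overlap between times and the steeper fall in replicate 2. CAV1 (caveolin 1, the scaffold of caveolae; 11745715_a_at) went from 9.64, 9.70, 10.19 and 10.18 to 9.19, 9.36, 8.97 and 8.98, a change of −0.80 ± 0.13 (limma adjusted p = 0.00209) with no overlap.

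The remaining named falls ranged from −0.67 to −0.76. MCM4 (a subunit of the replicative helicase) changed by −0.76, FABP5 (a fatty acid binding protein) by −0.75 and SPC25 (a kinetochore component) by −0.69. HAUS7 (a subunit of augmin, which branches spindle microtubules), BRI3BP (a membrane protein) and NCAPG2 (a condensin subunit) each changed by −0.68, and E2F8 (a repressor of the E2F family) by −0.67. Of a gene's probe sets, 2 of 5 passed as falls for NCAPG2 and 1 of 3 for E2F8, while for the other named falls all did. Probe sets with the suffix x or s, among them those of IFI27, TXNIP, ASS1, MCM4 and FABP5, can match more than 1 transcript, and their levels are uncertain to that extent. Without any 1 of the 4 replicate 2 arrays at 48 and 72 h, SPC25, NCAPG2 and E2F8 no longer passed, nor did SPC25 and E2F8 without the VEGF vehicle of replicate 1 at 48 h.

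The gene lists below were chosen with earlier results of these data known. Their counts, set beside the shares over all genes, are descriptions and not independent support. Those shares are also not matched for level. In the brightest band, from 8.85 upwards, 902 of 9859 probe sets were higher and 1204 lower. Mean levels per array at 48 h were 10.33 to 10.61 for the cell cycle list, 9.69 to 9.83 for cholesterol and 11.57 to 11.79 for glycolysis. Interferon-stimulated genes rose, in replicate 1 as well as in replicate 2. Of 12 measured, 7 rose by limma's test and 0 fell, with a median change of 0.31, against rises in 7.27% and falls in 4.15% of all genes. IRF9, a DNA-binding factor of the interferon response (11720209_at), measured 7.77, 7.79, 7.39 and 7.50 at 48 h and 8.49, 8.77, 8.12 and 8.19 at 72 h. The 72 h arrays were all above the 48 h arrays, with changes of 0.85 in replicate 1 and 0.71 in replicate 2 and a joint change of 0.78 ± 0.08 (limma adjusted p = 0.000237).

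OAS1 (an enzyme that makes the second messenger for RNase L; 11719588_a_at) went from 8.20, 8.01, 7.87 and 7.96 to 8.63, 8.58, 8.71 and 8.58, again without overlap, a change of 0.62 ± 0.08 (limma adjusted p = 0.000867). IFI27, a small mitochondrial protein strongly induced by interferon alpha and with 2 matches of the response element in the promoter shown above (11757480_x_at), measured 9.89, 9.76, 8.73 and 8.94 at 48 h and 10.58, 10.61, 10.01 and 10.48 at 72 h. The times did not overlap, and replicate 2 started lower and rose by more (1.41 against 0.77). Smaller rises that passed were those of MX1 (an antiviral GTPase, 0.37), ISG15 (a ubiquitin-like modifier, 0.30), IFIT3 (a partner of RNA-sensing IFIT proteins, 0.32) and IRF7 (a transcription factor that amplifies interferon production, 0.31).

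IFIT1 and IFIT2, which bind viral RNA, did not pass the joint test (0.22 and 0.42), and their changes differed between the sets: 0.53 and 0.67 in replicate 1 against −0.09 and 0.18 in replicate 2. The list held 7 calls in each set alone, and between 6 and 7 when any single vehicle array was left out. All 7 calls in each set alone were rises, beside rises in 0.882% of all probe sets in replicate 1 and 8.64% in replicate 2. The list's median change was 0.39 in replicate 1 and 0.31 in replicate 2. On the first day 0 of the 12 passed limma's test, with 3 higher and 2 lower at an unadjusted p under 0.05 and a median of 0.07, beside 4.33% of genes higher and 4.47% lower. IFI27 had a first-day change of −0.47 and IRF9 one of 0.20.

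Genes of cholesterol synthesis fell. Of 10 measured, 7 fell and 0 rose, all 10 had negative changes, and the median was −0.36, beside falls in 4.15% of all genes. IDI1 (isopentenyl-diphosphate isomerase; 11739383_a_at) went from 10.27, 10.16, 10.47 and 10.67 at 48 h to 10.06, 9.49, 9.76 and 9.78 at 72 h, without overlap, a change of −0.62 ± 0.12 (limma adjusted p = 0.00576). HMGCS1, the synthase just before HMG-CoA reductase (11754918_s_at), went from 10.09, 10.09, 10.35 and 10.37 to 9.87, 9.50, 9.76 and 9.69, also without overlap, a change of −0.52 ± 0.12 (limma adjusted p = 0.0101).

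The others that fell were SQLE (squalene epoxidase, −0.40), FDPS (farnesyl diphosphate synthase, −0.36), DHCR7 (the last reductase of the pathway, −0.36), MVK (mevalonate kinase, −0.23) and MVD (the decarboxylase after it, −0.12). INSIG1, which holds the SREBP complex in the endoplasmic reticulum, had −0.50 and did not pass by its brightest probe set, while 1 of its 3 probe sets fell past the threshold. The median was −0.22 in replicate 1, where 1 fell alone (0.54% of all probe sets), and −0.52 in replicate 2, where 8 did (6.44%). Leaving out 1 array of replicate 2 lowered the count of 7 to 3 (VEGF vehicle 48 h), 1 (PDGF vehicle 48 h), 2 (VEGF vehicle 72 h) or 2 (PDGF vehicle 72 h). On the first day 0 of 10 passed limma's test, with 0 higher and 1 lower at an unadjusted p under 0.05 and a median of −0.07.

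Cell cycle and DNA replication genes had mostly negative changes, more so in replicate 2. Of 22 measured, 7 fell and 0 rose, 21 had negative changes, and the median was −0.31, beside falls in 4.15% of all genes. Those that passed were of DNA synthesis: the helicase subunits MCM2 (−0.48), MCM3 (−0.44), MCM6 (−0.45) and MCM7 (−0.41), the sliding clamp PCNA (−0.52), the ribonucleotide reductase subunit RRM2 (−0.52) and TYMS (−0.70 for its brightest probe set). PCNA (11716103_a_at) measured 12.34, 12.20, 12.43 and 12.57 at 48 h and 11.93, 11.66, 11.85 and 12.04 at 72 h. It changed by −0.48 in replicate 1 and −0.56 in replicate 2, and the times did not overlap.

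The size of the fall differed between the sets for part of the list. MKI67, a marker of cycling cells (11721143_a_at), measured 10.56, 10.73, 11.01 and 10.89 at 48 h and 10.46, 10.77, 9.95 and 10.19 at 72 h. The change was −0.03 in replicate 1 and −0.88 in replicate 2, whose 72 h arrays were the lowest of the 8, and the joint change of −0.46 did not pass (limma adjusted p = 0.108). The changes of CCNB1 and CCNA2, the cyclins of mitosis and late S phase, were −0.13 and −0.14 in replicate 1 and −0.70 and −0.80 in replicate 2. TOP2A, which untangles DNA before division, had 0.41 in replicate 1 and −0.22 in replicate 2. For 11 of the 22 genes the change was lower in replicate 2 by the test between sets, against 0.98% of all probe sets. MKI67, TOP2A, CCNB1 and CCNA2 were among the 11, along with several mitotic genes and RRM2, TYMS and MCM7 of DNA synthesis. The mitotic genes CCNB2, BUB1, PLK1 and CDC20 did not pass that test, and neither did MCM2, MCM3, MCM6 and PCNA of DNA synthesis. The list's median was −0.10 in replicate 1, where 4 fell and 1 rose alone, and −0.56 in replicate 2, where 19 fell, beside falls in 0.54% and 6.44% of all probe sets.

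Without 1 array of replicate 2 the joint count of 7 became 3 (VEGF vehicle 48 h), 2 (PDGF vehicle 48 h), 2 (VEGF vehicle 72 h) or 4 (PDGF vehicle 72 h). The first day gave 5 falls and 0 rises, with a median of −0.20, beside falls in 4.47% of all genes.

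Part of the list of amino acid and endoplasmic reticulum stress response genes rose on the second day. Of 14 measured genes 6 rose and 0 fell, with a median of 0.32, beside 7.27% of all genes higher and 4.15% lower. ASNS (asparagine synthetase, with an amino acid response element in the promoter shown above; 11716365_x_at) measured 12.66, 12.60, 12.20 and 12.04 at 48 h and 13, 13.09, 13.01 and 12.74 at 72 h. The arrays did not overlap and the change was 0.58 ± 0.16 (limma adjusted p = 0.0301). PHGDH, the first enzyme of serine synthesis (11728203_a_at), went from 10.09, 9.94, 9.13 and 9.12 to 10.22, 10.38, 10.52 and 10.17. The sets were apart at 48 h and closer at 72 h, with a change of 0.28 in replicate 1 and 1.22 in replicate 2 and a joint change of 0.75 ± 0.19 (limma adjusted p = 0.0186).

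ATF4 (0.29), SESN2 (a stress-induced brake on mTORC1, 0.50), XBP1 (a factor of the unfolded protein response, 0.39) and HERPUD1 (a protein of endoplasmic reticulum-associated degradation, 0.42) also passed. The other 8 did not pass. Among these PSAT1, the next enzyme of serine synthesis after PHGDH, had a second-day change of 0.05, CHAC1 (which breaks down glutathione) 0.07, SLC7A11 (a cystine transporter) 0.10 and HSPA5 (a chaperone of the endoplasmic reticulum) −0.03, while TRIB3, a pseudokinase target of ATF4, had 0.52. On the first day 9 of the 14 rose, beside 4.33% of all genes, with a median of 0.48, ASNS by 1.58 and PSAT1 by 0.87. The joint count of 6 became 1 without any 1 of the 4 replicate 2 arrays at 48 and 72 h. It became 2 without the VEGF vehicle and 3 without the PDGF vehicle of replicate 1 at 48 h, and 4 without the PDGF vehicle of replicate 1 at 72 h.

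**Figure D4:**
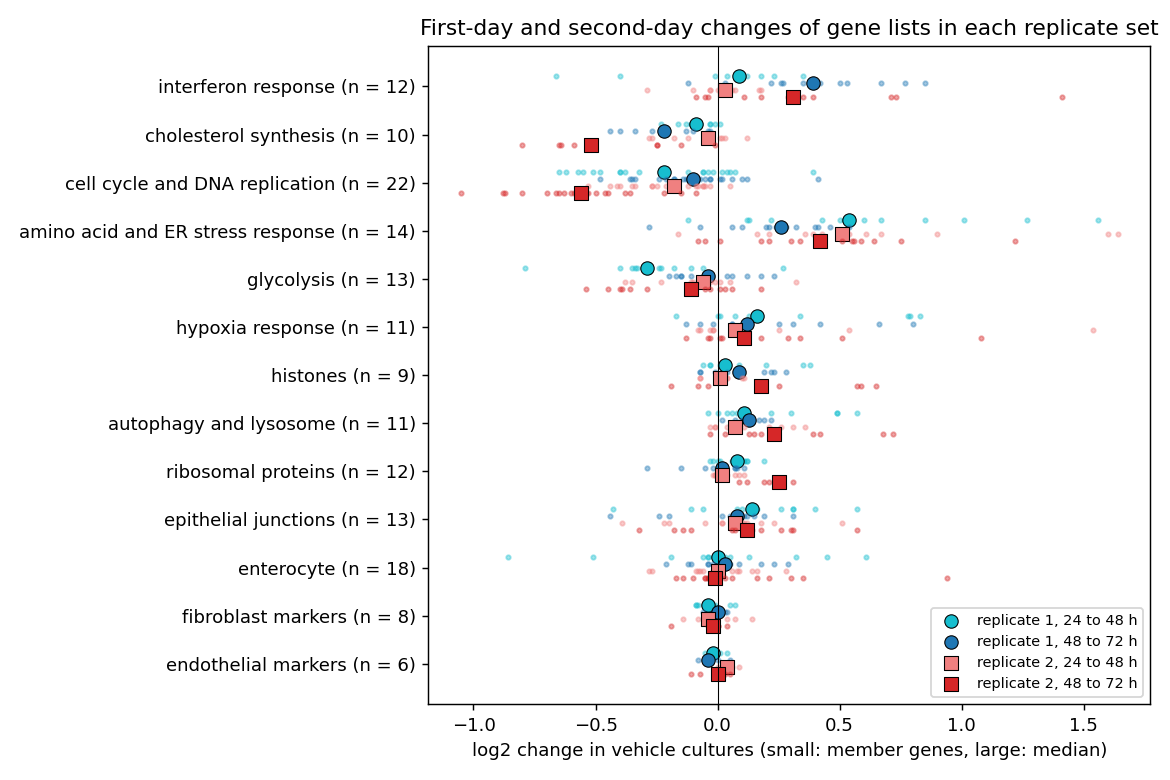
Log2 changes of 13 gene lists in vehicle cultures on the first day (24 to 48 h) and second day (48 to 72 h), separately for replicate 1 (circles) and replicate 2 (squares). Small points are member genes and large ones the list's median, with n members. Second-day medians of the interferon list are 0.39 and 0.31 with first-day medians of 0.09 and 0.03, and the cell cycle median is lowest on the second day of replicate 2 (−0.56).

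Counts in the smaller groups are read against the 7.27% of all genes that were higher and the 4.15% that were lower, and a count of 1 or 2 in a list of this size lies near those shares. Of 13 glycolysis genes 3 fell and 0 rose: GPI (−0.31), TPI1 (−0.30) and ENO1 (−0.27), enzymes of the pathway's upper and lower parts. These genes are bright, and falls were more frequent in the brightest band (1204 of 9859 probe sets). Of 11 hypoxia response genes 2 rose and 0 fell, VEGFA and NDRG1, while DDIT4, an inhibitor of mTORC1, had 0.66 in replicate 1 and −0.13 in replicate 2 and did not pass. Of 9 histone genes 4 rose and 0 fell: H2AC6 (0.44), H2BC21 (0.40), H2BC12 (0.38) and H1-2 (0.26), whose transcripts of near-identical family members the probes may not separate. Of 11 autophagy and lysosome genes WIPI1 (which marks forming autophagosomes, 0.43) and the protease CTSD (0.16) rose, and all 11 changes were positive. Of 9 p53 targets 1 rose, TP53I3 (0.30), and 0 fell.

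Differentiation markers of the colon moved little as lists. Of 18 enterocyte genes 3 rose and 0 fell, with a median of 0.00, and of 14 goblet and secretory genes 2 rose and 0 fell, with a median of 0.04, beside rises in 7.27% of all genes. CEACAM1, an adhesion molecule of mature enterocytes (11723282_a_at), measured 9.42, 9.36, 8.98 and 8.94 at 48 h and 9.72, 9.65, 9.85 and 9.96 at 72 h. Its arrays did not overlap and its change was 0.62 ± 0.10 (limma adjusted p = 0.0023), greater in replicate 2. KRT20, a keratin of surface epithelium, changed by 0.29 and DPP4, a brush border peptidase, by 0.24, the remaining enterocyte genes that passed. The goblet genes that passed were TFF3, a secreted trefoil peptide (0.37), and SPDEF, a factor for goblet maturation (0.18).

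Among 12 stem and Wnt target genes ZNRF3, a ligase that removes Wnt receptors, rose by 0.41, and LGR5, the marker of crypt stem cells (11759120_a_at), changed by −0.48, from 7.47, 7.39, 7.44 and 7.55 to 7.15, 7.01, 6.76 and 7.02. Among 13 junction genes CLDN7 (0.34), CDH1 (0.20) and JUP (0.19) rose and PKP2, a desmosome component, changed by −0.38. The other genes of these lists did not pass, and 1 of 12 is near the shares over all genes in either direction.

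Because the series used VEGF and PDGF, their ligands and receptors were described in the vehicle cultures as well. Of 15 genes 3 rose and 0 fell, all ligands, beside rises in 7.27% of all genes. VEGFA (11725371_s_at) went from 10.58, 10.64, 10.46 and 10.18 to 10.97, 11.08, 10.93 and 10.72, a change of 0.47 ± 0.13 (limma adjusted p = 0.0299) without overlap. Of its 10 probe sets 5 rose past the threshold. VEGFB rose by 0.29 and PDGFA by 0.31. Of the receptors, KDR had −0.02, FLT1 −0.04, PDGFRA −0.01 and PDGFRB 0.00, and the co-receptor NRP1 had 0.25 and did not pass.

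Immediate early genes, which respond to stimuli within minutes, gave 0 calls of 11 by limma's test, with 0 higher and 1 lower at an unadjusted p under 0.05, and 1 call without the VEGF vehicle of replicate 1 at 72 h. EGR1 (11717860_a_at) measured 11.75, 11.93, 8.88 and 8.88 at 48 h and 11.62, 11.07, 10.95 and 9.11 at 72 h, high in replicate 1 at both times and spread at 72 h in replicate 2. The counts of each set alone given next stand beside rises in 0.882% of all probe sets in replicate 1 and 8.64% in replicate 2. Ribosomal protein genes, 12 of them, gave 0 calls in the joint test (6 higher and 0 lower at an unadjusted p under 0.05, and 4 calls without the VEGF vehicle of replicate 1 at 72 h), whereas 10 rose in replicate 2 alone and 0 in replicate 1 alone (0 higher and 2 lower at an unadjusted p under 0.05).

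Apart from the interferon list, single arrays of replicate 2 also decided the counts of these smaller lists. Without 1 of those 4 arrays, glycolysis, p53, goblet, stem and autophagy gave 0 calls each. Epithelial junctions gave 0 or 1, enterocyte genes 1 or 3, hypoxia 1 or 2, VEGF and PDGF genes 1 or 2 and histones 2 or 3. Leaving out 1 array of replicate 1 at 48 or 72 h gave 1 to 5 calls for glycolysis, 1 to 4 for junctions, 1 to 4 for autophagy, 1 or 2 for p53 targets and 1 to 3 for goblet genes.

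The second day was set beside the first. From 24 to 48 h, 3394 probe sets (6.89%) changed in the vehicle cultures, 1619 higher (3.28%) and 1775 lower (3.6%), again with a median size of 0.28 among calls. With each array centred on its median the first-day split became 1083 higher and 2097 lower, and the second-day split 2143 and 1739. The first-day count was 1611 without the PDGF vehicle of replicate 1 at 24 h, 1577 without the VEGF vehicle and 1675 without the PDGF vehicle of replicate 1 at 48 h. Since both steps use the 48 h arrays, their difference was tested rather than their overlap. By limma, 0 probe sets had a second-day change that differed from the first-day change after adjustment (lowest adjusted p 0.0556), 3875 (7.86%) did at an unadjusted p under 0.05, and array weights gave 17 calls and extra quantile normalisation 12. Without the VEGF vehicle of replicate 1 at 24 h there were 5 calls, and without that at 72 h 2.

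Among genes named above, and chosen here after their values were seen, TXNIP had unlike values on the 2 days (first −0.21, then 1.12), as had IFI27 (−0.47, then 1.09), ACAT2 (−0.13, then −0.78) and, the other way round, PSAT1 (0.87, then 0.05). The difference between days did not pass after adjustment for any of these. CAV1 fell past the threshold on each day (−0.76 and −0.80), and SLC16A4 rose on each (1.28 and 1.06).

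Pairs of steps from different replicate sets share no array. The first-day change of replicate 1 and the second-day change of replicate 2 had a Pearson correlation of 0.58 across 49293 probe sets. For the first day of replicate 2 with the second day of replicate 1 it was 0.14. These values are descriptions, as all arrays were normalised together. Of the probe sets called on the first day in replicate 1 alone (4855 or 9.85%, 5.48% higher and 4.37% lower), 2771 were called in the same direction on the second day in replicate 2 alone and 66 in the opposite direction. The former are 57.1% of the first list and 37.3% of the second. Replicate 2 alone had 1643 calls on the first day (3.33%, 1.34% higher and 1.99% lower), and 156 of them, 9.5% of that list and 22.3% of the other, were called in the same direction on the second day of replicate 1, and 15 in the opposite direction. Of the 660 first-day rises of replicate 2, 83.8% were positive on the second day of replicate 1, as were 51.1% of all probe sets, and of its 983 falls 62.3% were negative, as were 48.9%. The SD of the first-day change was 0.155 in replicate 1 and 0.125 in replicate 2, so the greater change fell on the first day in replicate 1 and on the second day in replicate 2.

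The same step could be read, though not as an independent repeat, in cultures given VEGF or PDGF. They share no array with the vehicles, but within a replicate set they share the hybridisation day. From 48 to 72 h, 4532 probe sets (9.19%) changed there, a total that equals the vehicle one by coincidence, with 2062 higher (4.18%) and 2470 lower (5.01%), or 1430 and 2947 with median centring. Without the PDGF culture of replicate 2 at 48 h the count was 1985, without the VEGF culture of replicate 2 at 72 h 2104, and without the PDGF culture of replicate 2 at 72 h 1823. Called in the same direction in vehicle and treated cultures were 2247 probe sets, 49.6% of each list, and 2 were called in opposite directions. Of the vehicle calls, 94.2% of the rises and 96.7% of the falls had the same sign in treated cultures. Of all probe sets, 53.9% were positive and 46.1% negative there. By limma's test 0 probe sets differed between the treated and the vehicle step, also under each alternative tried, and 4138 (8.39%) did at an unadjusted p under 0.05.

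Interferon genes rose in treated cultures as well, 7 of 12 with 0 lower and a median of 0.38, beside rises in 5.4% and falls in 5.8% of all genes. Of the 10 cholesterol genes 2 fell and 0 rose (median −0.19), and of the 22 cell cycle genes 5 fell and 0 rose (median −0.33). Of the 14 amino acid response genes 0 rose and 1 fell there (3 higher and 4 lower at an unadjusted p under 0.05), with a median of −0.05.

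RNA quality and other cell types were measured beside these results. The RNA integrity number was 9.73 ± 0.10 (SD, n = 4) at 48 h and 9.52 ± 0.30 (SD, n = 4) at 72 h, a difference of −0.20 (exact 2-sided permutation p = 0.343, smallest possible 0.0286). With it as a covariate beside the block the second-day count was 2066, and the interferon list gave 7 calls while the amino acid list gave 1, the cholesterol list 2 and the cell cycle list 4. The difference between 3′ and 5′ probe sets of the GAPDH control was 0.24 to 0.43 and that of beta-actin 0.87 to 1.35 over the 8 arrays. Their part in the results was not tested.

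Colon epithelium markers were bright: EPCAM averaged 13.35 at 48 h and 13.20 at 72 h, and KRT8 13.47 and 13.48. Of 11 such markers 3 rose on the second day and 0 fell: KRT20 (0.29), LGALS4 (a galectin of gut epithelium, 0.28) and CDH1 (0.20). Of all genes, 7.27% were higher and 4.15% lower, and in the brightest band 902 of 9859 probe sets rose. KRT20 and CDH1 were already counted in the enterocyte and junction lists above. Markers of fibroblasts (8), endothelium (6) and blood (4) gave 0 calls by limma's test, also with 0 at an unadjusted p under 0.05. Their mean levels ranged from 6.51 to 6.58, 6.80 to 6.84 and 6.92 to 7.03 over the arrays at 48 h, and from 6.52 to 6.54, 6.77 to 6.82 and 6.86 to 6.92 at 72 h. Of the fibroblast markers 3 were at or below 6.45, the level under which 95% of the ERCC spike-in probe sets lie.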

How the data were processed

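Per the labels' protocols, each sample's total RNA was amplified with a biotin label and put on 1 Affymetrix array. The authors deposited log2 expression values per probe set. The submitters' processing notes name RMA and R 3.0.1. RMA normalises quantiles between arrays, so a shift of total RNA per cell is not seen. The sources used here give no filter. The 2 deposited tables (49495 and 49395 entries) held identical shared values. Rows for 102 manufacturer controls and 100 ERCC spike-ins were set aside, leaving 49293 probe sets, 39368 of them (79.9%) above the 95th percentile of the ERCC probe sets. Array medians were 7.05 to 7.13.

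Tests used limma 3.58.1 in R 4.3.3. Group means of the 12 groups were fitted over 24 arrays with the replicate number as a block (11 residual degrees of freedom), with moderated 2-sided tests and Benjamini-Hochberg adjustment over all probe sets at 0.05. The number pairs the arrays because the labels give each number its own hybridisation day. Deviations from group means correlated by 0.257 to 0.80 in 66 of 66 pairs of groups. The sets alone, and their difference, came from means per time and set over 12 vehicle arrays (6 residual degrees of freedom). The fits were tested on simulated data with independent noise for each array. Such data cannot show how the p-values behave if the arrays of a set are not independent.

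Genes came from the platform annotation (44988 probe sets with 1 gene, 1832 with several, 2473 not listed there), updated by Entrez ID to RefSeq for 44961. Each list gene is its probe set with the highest mean over all arrays. Other probe sets of a gene did not always give the same call. Named genes are the 12 largest rises and 12 largest falls past the threshold with 1 sign in all 4 array steps, plus the 20 lists. The comparison and lists were chosen with earlier results of these data known. Promoters are RefSeq's, in GRCh38.p14. Alternatives left out the block, the dimmest 40% of probe sets or each array, fitted vehicle arrays only, centred or quantile-normalised arrays, used the other table, trend and robust settings, array weights, or the RNA integrity number.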

Additional observations from a re-analysis of the deposited data

Results flagged for a closer look

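The second-day change differed between the replicate sets for 895 probe sets by limma's test with Benjamini-Hochberg adjustment. Among genes named in the text, replicate 2 exceeded replicate 1 by 1.62 on the log2 scale for LCN2, 1.24 for NEBL, 1.22 for NIBAN1, 1.19 for ASS1, 1.19 for LARP6, 1.0 for SLC16A4, 0.99 for TGM2 and 0.93 for TMC4. It exceeded replicate 1 also for PHGDH (0.94), CEACAM1 (0.65), WIPI1 (0.51), CLDN7 (0.44) and H2AC6 (0.42).

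The change was lower in replicate 2 than in replicate 1 by −0.95 for SPC25, −0.92 and −0.69 for the probe sets of TYMS, −0.83 for ACAT2, −0.82 for CAV1, −0.7 for E2F8 and −0.45 for HAUS7. The same held for the cell cycle genes MKI67 (−0.85), RRM2 (−0.69), CCNA2 (−0.66), TOP2A (−0.62), CCNB1 (−0.57) and MCM7 (−0.46), and for FDPS (−0.46). IFIT1 (−0.62) and IFIT2 (−0.49) were lower in replicate 2.

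In 3 of the 182 groups of 4 arrays examined for the genes named, 1 array stood apart from the other 3, by a gap past Dixon's 95% critical value. Chance gives such a gap for about 5% of groups of independent values. Each group here holds arrays of both replicate sets, which can lie in pairs (as for ASS1 at 48 h), so that rate need not apply. MVK was lowest in the VEGF vehicle of replicate 1 at 72 h (gap 0.9 of the range), HERPUD1 highest in the VEGF vehicle of replicate 2 at 72 h (0.955), and PSAT1 highest in the VEGF vehicle of replicate 1 at 48 h (0.857).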

How the results depend on the processing

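The second-day count of 4532 stayed within 1.5 times under the settings tried except these: 1032 without the replicate block, 2066 with the RNA integrity number beside the block, 701 for replicate 1 alone, 7435 for replicate 2 alone, 54 for the VEGF vehicle alone and 995 for the PDGF vehicle alone, which have fewer arrays. Leaving out 1 array gave 1174 to 4782. The first-day count of 3394 became 966 without the block, 1699 with the integrity number and 1643 for replicate 2 alone, and 1577 to 3441 when 1 array was left out. The difference between days, 0 calls, gave 12 with quantile normalisation, 17 with array weights and 0 to 5 with 1 array left out. The difference between replicate sets, 895, gave 1457 with the integrity number and 219 to 1156 with 1 array left out. The treated step, 4532, gave 1380 without the block and 1823 to 4491 with 1 array left out. For treated against vehicle, fits of vehicle arrays alone cannot give the difference, and the 48 and 72 h arrays alone were used in their place, a choice made after seeing the data; the count was 0 throughout. Without the block the interferon list gave 4 calls, cell cycle 3, and cholesterol and amino acid 1 each. For the 24 named genes under all settings, 494 of 600 values stayed past the threshold, 106 did not, and 0 turned direction. The naming rule asked for 1 sign in all 4 array steps, so the absence of reversals was largely fixed by that choice. The settings also reuse the same arrays, and the other deposited table holds identical values. Without the block 12 of the 24 were lost. The integrity number's difference was −0.325 to −0.092 with 1 array left out. The cause of these shifts was not tested. In these fits a group's lone array is assumed to vary like the others. Dim signal limits detection: 0.19% of the dimmest band was called.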
